A study of Mus musculus with 6 samples.

Results

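Fatty acid synthesis and desaturation was examined through 10 named genes of the 54232 in the count table. They are Srebf1, Acly, Acaca, Fasn, Me1, Elovl6, Scd1, Scd2, Fads1 and Fads2, chosen by name for their place in the pathway. The choice was made with earlier results of these data known. The RNA came from primary uterine stromal cells of mice, 3 WT and 3 Pbrm1 cKO samples, all from day 4. Pbrm1 encodes a subunit of the SWI/SNF chromatin remodeler, a complex that moves nucleosomes. All 10 genes were found by symbol, and all 10 passed DESeq2's filter on low counts and entered the test.

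The labels name the groups WT and Pbrm1 cKO. In the study, controls carried the floxed alleles (Pbrm1 fl/fl) without Cre, and cKO mice carried the same alleles with PR-IRES-cre, so that Cre was driven by the progesterone receptor locus in every cell that uses it and not in stroma alone. The labels give ages of 8 to 12 weeks. They call the time day 4 of pregnancy, while their description of the isolation speaks of pseudopregnant females. Each preparation pooled 5 to 10 uterine horns, which the labels say for WT and the study's methods for both groups, and cells were plated for 4 h and then kept for 2 h in fresh medium before harvest. The labels describe libraries from total RNA (primed at random and with poly(T), then depleted), the study's methods mRNA purification, and the sources used here do not settle which was done. The study calls its replicates biological and does not say whether each was a separate pool of animals, so p-values measure the spread between these samples.

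Total counts were 13253575 to 18338667 per library, and the 10 genes had from 69 counts (Fads2) to 5010 counts (Fasn) in single libraries. Pbrm1 itself had normalized counts of 1354, 1385 and 1677 in WT and 397, 459 and 451 in Pbrm1 cKO, a log2 fold change of -1.76 ± 0.13 (SE, DESeq2 adjusted p = 5.19e-40). The stromal markers Vim and Pdgfra stood at mean length-scaled levels of 1347 and 273 TPM in WT. The 11 adipocyte markers were at or near 0, with at most 6 counts in any library and at most 1 for Adipoq and Cidec, and none could be tested. Leukocyte markers moved with the groups. Their summed level was 468 to 1003 TPM in WT and 5082 to 5151 TPM in Pbrm1 cKO, and 9 of the 12 were called higher. Summed epithelial markers were 214 to 331 TPM in WT and 397 to 410 TPM in Pbrm1 cKO (4 of 12 higher), and summed endothelial markers 57.3 to 137 TPM and 45.9 to 51.2 TPM (2 of 8 lower, 1 higher). Summed stromal markers were 3045 to 3708 TPM in WT and 2659 to 2998 TPM in Pbrm1 cKO (7 of 12 lower, 1 higher), and summed smooth muscle markers 4335 to 4492 TPM and 4832 to 5149 TPM, although 3 of those 8 genes were lower (Acta2 at -0.97). The part of these cells in the results below was not tested, and in bulk samples fewer cells of a type and less RNA per cell cannot be told apart. WT replicate 1 stood apart, with the lowest WT value for 10 leukocyte, 10 epithelial and 7 endothelial markers and the highest WT value for 9 of the 10 lipogenic genes. Where leaving it out changed the call of a lipogenic gene or the counts of calls in a connected list, both values are given.

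Cells make fatty acids from citrate. ATP citrate lyase (Acly) splits citrate to acetyl-CoA, acetyl-CoA carboxylase (Acaca) turns that into malonyl-CoA, and fatty acid synthase (Fasn) joins the units to palmitate, using NADPH that malic enzyme (Me1) helps to supply. Elovl6 then lengthens palmitate to stearate, the stearoyl-CoA desaturases Scd1 and Scd2 put in the double bond that makes oleate and palmitoleate, and Fads2 and Fads1 desaturate dietary essential fatty acids on the way to arachidonic acid, the precursor of prostaglandins. Srebf1 encodes SREBP-1, the transcription factor best known for driving these genes. In the uterus, prostaglandins are long known for their role in implantation and decidualization.

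The desaturases and the elongase fell in Pbrm1 cKO cells, whereas the genes that build palmitate had a small change or did not pass the test. Scd2, Scd1, Fads2, Fads1 and Elovl6 fell to between 33.3% and 50.5% of their WT means. Acly had a smaller decrease, to 80.7%, and Fasn, Acaca, Srebf1 and Me1 did not pass the test. By DESeq2 at an adjusted p under 0.05, 6 of the 10 genes were lower and 0 were higher, and 4 were not called. At an unadjusted p under 0.05, 2 of them were higher (Srebf1 and Me1), and edgeR called the same genes, 2 in all, higher. Without WT replicate 1, 5 of the 10 genes were called lower and 2 higher (Srebf1 and Acaca). Of all 17474 genes tested, 15.2% were called lower and 15.9% higher, so that 31.1% were called in all. The decrease was at least 2-fold for 4 of the 10 (Scd1, Scd2, Fads1 and Fads2), against 5.32% of all genes tested. The 3 WT values and the 3 Pbrm1 cKO values did not overlap for 7 of the 10 genes, against 48.6% of all genes tested. The median log2 fold change of the 10 genes was -0.65 and that of all genes tested was -0.0007. All 10 genes had a mean above 100 normalized counts, and of the 9586 tested genes at or above that level 19.6% were called lower.

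**Figure D1:**
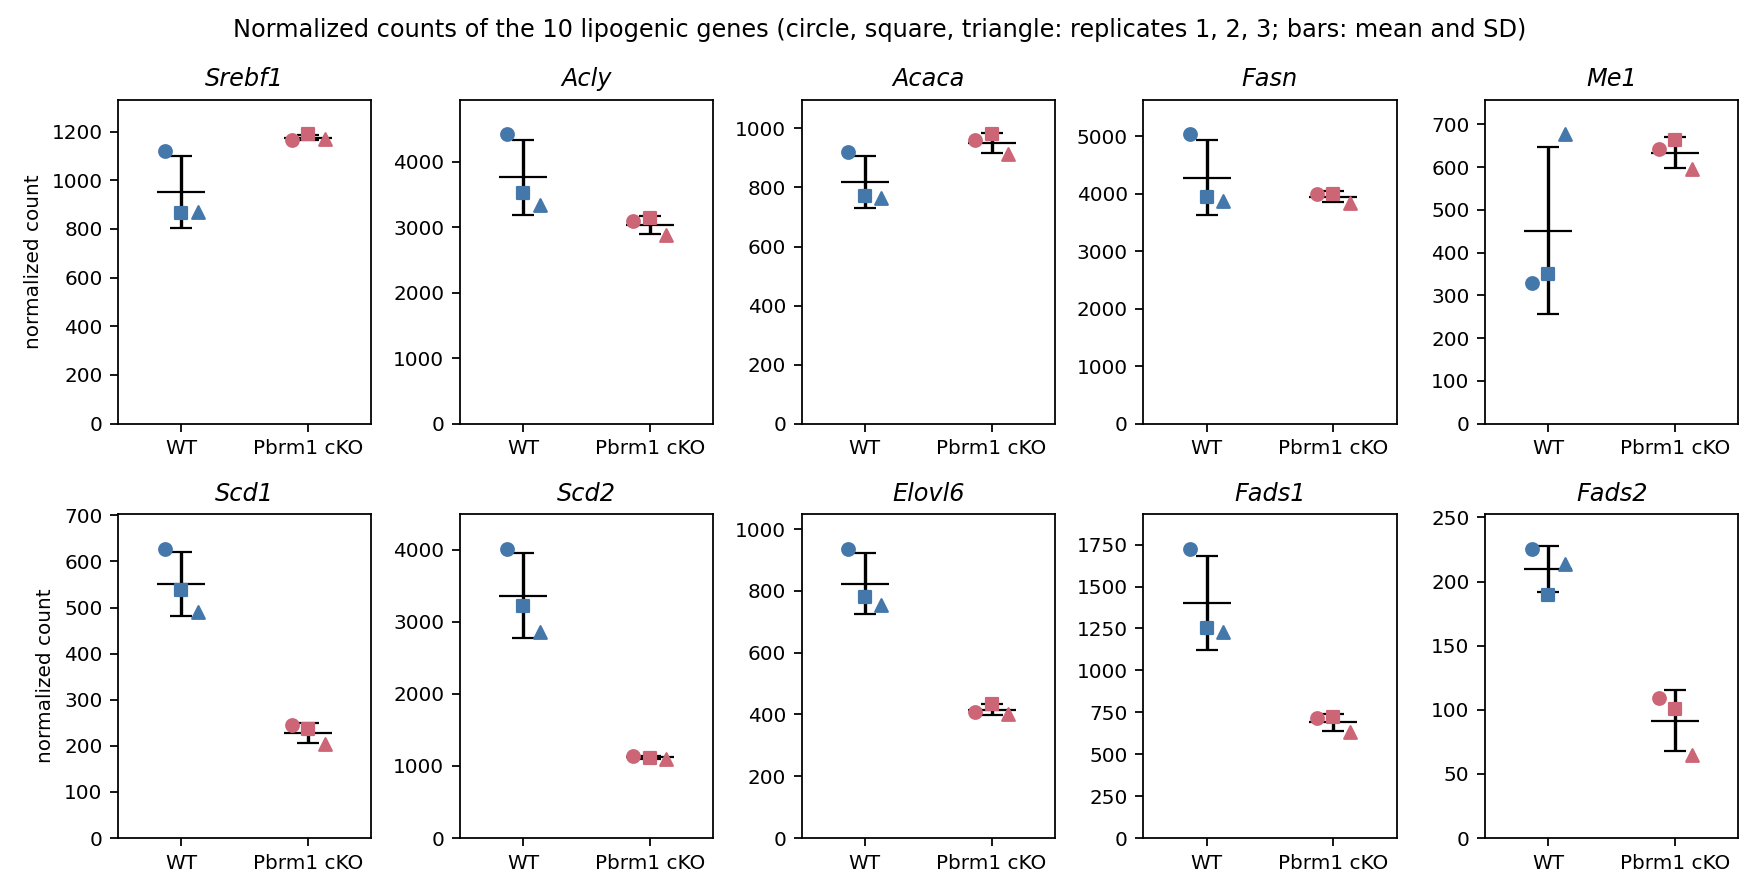
Normalized count of each gene (y axis, linear, from 0) in the 3 WT and the 3 Pbrm1 cKO libraries, with circle, square and triangle for replicates 1, 2 and 3 and bars for the mean and SD. Scd1, Scd2, Elovl6, Fads1 and Fads2 in the lower row show wide gaps between the groups, and WT replicate 3 lies at the Pbrm1 cKO level for Me1.

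Of the 10 genes, the stearoyl-CoA desaturases had the largest estimated changes, with 95% intervals of -1.85 to -1.32 for Scd2 and -1.57 to -0.98 for Scd1 on the log2 scale. Scd2 (chr19:44293676-44306864, plus strand, GRCm38 as in the count table) had normalized counts of 4009, 3217 and 2852 in WT and 1143, 1115 and 1100 in Pbrm1 cKO. Every WT library was above every Pbrm1 cKO library by a wide margin, and the Pbrm1 cKO values lay close together. The means were 3359 ± 592 and 1120 ± 22.2 (SD, n = 3 each), and the log2 fold change was -1.59 ± 0.13 (SE, DESeq2 adjusted p = 1.45e-30), a 3.00-fold decrease. Scd1 (chr19:44394451-44407709, minus strand) had normalized counts of 627, 538 and 491 in WT and 246, 236 and 204 in Pbrm1 cKO. The groups did not overlap, and the log2 fold change was -1.27 ± 0.15 (SE, DESeq2 adjusted p = 1.72e-15), a 2.42-fold decrease. Without WT replicate 1 the log2 fold changes were -1.44 for Scd2 and -1.17 for Scd1, both still called.

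Scd1 and Scd2 belong to a cluster of paralogs, with Scd4 between them, and they were the only genes of their window with a mean above 10 normalized counts. Scd3 and Scd4 had at most 1 and 6 counts in any library. Scd1 and Scd2 share some sequence, but little that could confuse the counting. Of the 50-base stretches in the Scd1 transcripts of GENCODE release 21, 4.56% also occur in transcripts of another gene, and for Scd2 the share was 3.97%.

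Which of these isozymes prevails was compared within each library, where the scaling between libraries cancels. The length-scaled Scd2 level was 5.67, 5.30 and 5.15 times that of Scd1 in WT and 4.13, 4.20 and 4.79 times in Pbrm1 cKO. Every Pbrm1 cKO ratio was below every WT ratio. The difference in the log2 ratio was -0.30 (exact permutation test, two-sided, p = 0.10, n = 3 per group), and 0.10 is the smallest p that 3 against 3 samples allow, so the threshold could not be reached. Scd2 made up 83.7% to 85.0% of the summed Scd1 and Scd2 level in WT and 80.5% to 82.7% in Pbrm1 cKO, and it was the main desaturase of the pair in every library.

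Elovl6 and the Fads desaturases fell as well. Elovl6 (chr3:129532355-129638495, plus strand), the elongase that supplies the Scd enzymes with stearate, had normalized counts of 936, 779 and 755 in WT and 408, 435 and 403 in Pbrm1 cKO. Its log2 fold change was -0.99 ± 0.13 (SE, DESeq2 adjusted p = 6.85e-13), with no overlap between groups. Fads1 (chr19:10182888-10196870, plus strand), which makes arachidonic acid in the last desaturation of that route, had 1725, 1254 and 1227 in WT and 717, 722 and 633 in Pbrm1 cKO. WT replicate 1 was the highest value, and the lowest WT library was still well above the highest Pbrm1 cKO library. The log2 fold change of Fads1 was -1.02 ± 0.15 (SE, DESeq2 adjusted p = 2.82e-10), and it was -0.85 without WT replicate 1.

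Fads2 (chr19:10064164-10101503, minus strand), the desaturase that opens the route, was the least abundant of the 10 genes by count. It had normalized counts of 226, 190 and 214 in WT and 110, 101 and 64.7 in Pbrm1 cKO. Pbrm1 cKO replicate 3 was low, and Fads2 was the single gene of the 10 whose coefficient of variation was larger in Pbrm1 cKO (25.9%) than in WT (8.70%). The log2 fold change was -1.19 ± 0.22 (SE, DESeq2 adjusted p = 1.12e-06), and the groups did not overlap. The gene model behind the Fads2 count has 1508 exonic bases and stops 1399 bases short of the 3' end of the gene in GENCODE release 21. Its length-scaled level depends on that model, whereas its fold change compares the same bases in both groups. The ratio of Fads1 to Fads2, chosen after the values were seen, was 3.34, 2.88 and 2.50 in WT and 2.86, 3.13 and 4.27 in Pbrm1 cKO. These ranges overlapped (difference in log2 ratio 0.22, exact permutation test, two-sided, p = 0.50, n = 3 per group).

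Fads1 and Fads2 sit in a cluster with Fads3 on chromosome 19. This window held 7 genes whose mean normalized count reached 10, of which 4 were lower, 1 was higher and 2 were not called. These neighbours were named after their values were seen. Fads3, whose desaturase acts on sphingoid bases, had normalized counts of 3015, 2370 and 2306 in WT and 2640, 2608 and 2340 in Pbrm1 cKO. Its groups overlapped and its log2 fold change was -0.02 ± 0.13 (SE, DESeq2 adjusted p = 0.935). Fen1, a nuclease of DNA replication whose gene lies just beyond Fads1, fell by 1.05 on the log2 scale (SE 0.11, DESeq2 adjusted p = 3.19e-19), and Tmem258, next to it, fell by 0.44 (DESeq2 adjusted p = 0.000468). Rab3il1, on the far side of Fads3, rose by 1.66 (DESeq2 adjusted p = 5.63e-09). Dagla was at 0.61 with a DESeq2 adjusted p of 0.0917. Within the cluster, Fads1 and Fads2 were lower and Fads3 was not called.

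**Figure D2:**
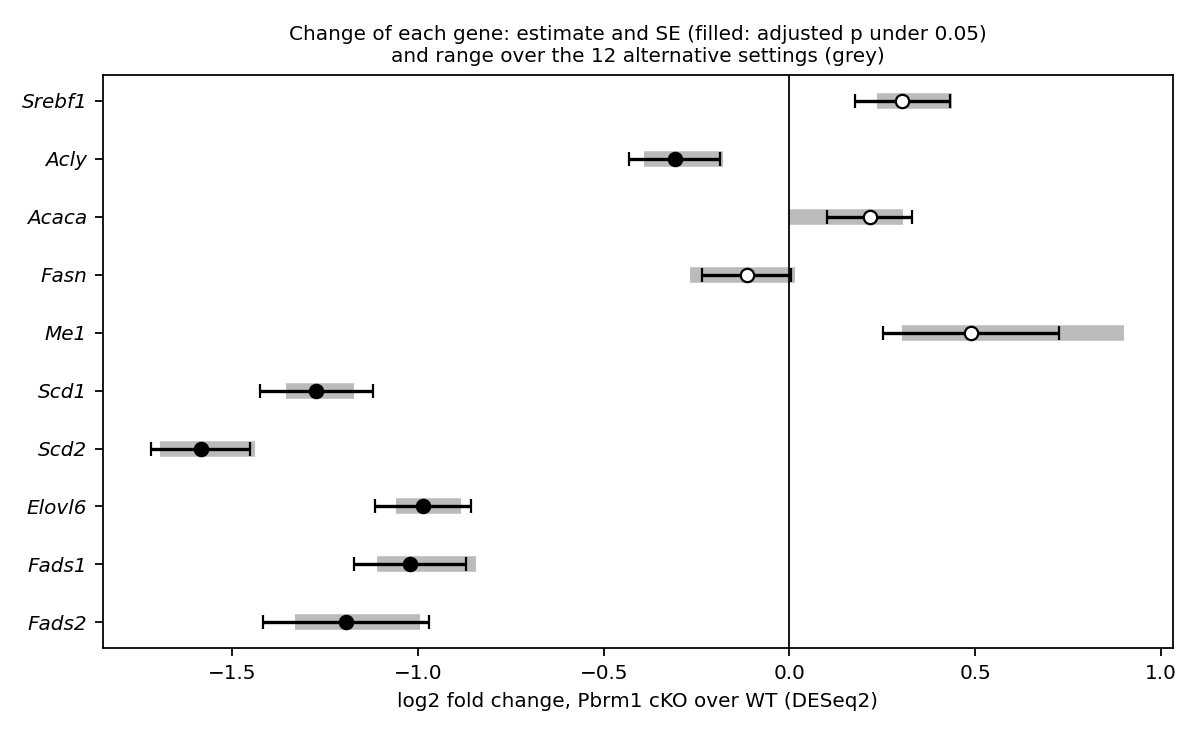
Log2 fold change of each gene, Pbrm1 cKO over WT (x axis), with its standard error, filled where the DESeq2 adjusted p was under 0.05, and in grey the range over 12 alternative settings, without the fit on length-scaled totals. The 5 lowest rows (Scd1, Scd2, Elovl6, Fads1, Fads2) keep clear of 0 over the whole range, and the ranges of Acaca and Fasn cross it.

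The enzymes that build palmitate had smaller estimates, of either sign. Fasn (chr11:120805846-120824547, minus strand) had normalized counts of 5031, 3935 and 3872 in WT and 4002, 4003 and 3845 in Pbrm1 cKO. WT replicate 1 was high, and the other WT libraries lay among the Pbrm1 cKO values. The log2 fold change was -0.12 with a 95% interval of -0.35 to 0.12 (DESeq2 adjusted p = 0.525), and without WT replicate 1 it was 0.02. Acaca (chr11:84129672-84401651, plus strand) had 920, 772 and 765 in WT and 960, 980 and 915 in Pbrm1 cKO. The groups overlapped through WT replicate 1 and Pbrm1 cKO replicate 3, and the log2 fold change was 0.22 with a 95% interval of -0.01 to 0.44 (DESeq2 adjusted p = 0.152). Without WT replicate 1 it was 0.31 (DESeq2 adjusted p = 0.0125), the only one of 12 alternative settings that called it, and with the trend of each library against gene length removed it was -0.004 (DESeq2 adjusted p = 0.988). Of the 50-base stretches of Acaca transcripts, 30.4% also occur in other genes, most of them in the annotated copy Gm5182, so part of its reads could not be placed.

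Acly (chr11:100476353-100528000, minus strand) had normalized counts of 4419, 3528 and 3338 in WT and 3090, 3143 and 2875 in Pbrm1 cKO. The groups did not overlap, with WT replicate 3 only a little above the highest Pbrm1 cKO library. Its log2 fold change was -0.31 ± 0.12 (SE, DESeq2 adjusted p = 0.0393). The call was lost under 6 of 12 alternative settings (the fit on length-scaled totals, described below, not counted), among them leaving out WT replicate 1 (-0.18, DESeq2 adjusted p = 0.0912) and leaving out any 1 of the Pbrm1 cKO libraries (DESeq2 adjusted p = 0.108 to 0.193).

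Me1 (chr9:86581371-86695953, minus strand) split the WT libraries. Normalized counts were 328, 350 and 677 in WT and 642, 665 and 595 in Pbrm1 cKO. WT replicate 3 was at the level of the Pbrm1 cKO libraries and the other WT libraries were well below all of them. The log2 fold change was 0.49 ± 0.24 (SE, DESeq2 adjusted p = 0.104). Without WT replicate 3 it was 0.90 (DESeq2 adjusted p = 2.51e-10), whereas leaving out WT replicate 1 gave 0.30 (DESeq2 adjusted p = 0.56) and leaving out WT replicate 2 gave 0.33 (DESeq2 adjusted p = 0.386). edgeR with all libraries gave 0.50 (edgeR adjusted p = 0.00996). Me1 was not called under 9 of 12 alternative settings. WT replicate 1, the highest WT library for the other 9 genes, was the lowest for Me1. Of the 50-base stretches of Me1 transcripts, 28.3% also occur in other genes, mainly Gm7049 and Gm48795.

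Srebf1 (chr11:60199089-60222581, minus strand), the gene of the transcription factor, had normalized counts of 1121, 865 and 869 in WT and 1166, 1188 and 1171 in Pbrm1 cKO. Every Pbrm1 cKO library was above every WT library, by little in the case of WT replicate 1. The means were 952 ± 147 and 1175 ± 11.6 (SD, n = 3 each), and the log2 fold change was 0.30 ± 0.13 (SE, DESeq2 adjusted p = 0.0531). It passed the threshold with edgeR (0.31, edgeR adjusted p = 0.0316) and without WT replicate 1 (0.44, DESeq2 adjusted p = 5.53e-05). It was not called under 9 of 12 alternative settings, among them leaving out any 1 of the other libraries (0.24 to 0.31, DESeq2 adjusted p = 0.146 to 0.23). The counts are per gene and do not separate the isoforms SREBP-1a and SREBP-1c, nor do they bear on the cleavage that activates the protein.

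The spread among replicates differed between the groups. For 9 of the 10 genes the coefficient of variation was larger in WT, with a median of 15.3% (8.70% to 43.3%) against 4.45% (0.985% to 25.9%) in Pbrm1 cKO. For Srebf1 it was 15.4% in WT and 0.985% in Pbrm1 cKO, and for Scd2 17.6% and 1.98%. No library was a copy of another. The median chi-square over genes was 1.55 to 2.54 times the value that counting error alone gives between Pbrm1 cKO libraries, and 3.68 to 7.96 times between WT libraries.

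Levels of different genes can be set beside each other only per length. On the length-scaled scale (TPM, from counts and exonic lengths), the order in WT was Acly (135 ± 23.7 TPM, SD, n = 3), Scd2 (116 ± 22.9), Fads1 (76.7 ± 17.2), Fasn (73.8 ± 13), Srebf1 (31.9 ± 5.71), Fads2 (26.3 ± 2.95), Elovl6 (24.2 ± 3.45), Me1 (22.1 ± 9.58), Scd1 (21.5 ± 3.13) and Acaca (9.06 ± 1.18). Ranges of neighbours in this order overlapped except between Scd2 and Fads1, between Fasn and Srebf1 and between Scd1 and Acaca. In Pbrm1 cKO, Acly led at 125 ± 9.10 TPM, Fasn followed at 78.2 ± 4.03 TPM, and Scd2 stood at 44.5 ± 2.18 TPM, within the range of Srebf1 (45.2 ± 1.39 TPM) and Fads1 (43.3 ± 4.28 TPM). Me1 (35.7 ± 2.88 TPM) came next and was clear of its neighbours on either side. Elovl6 (14.0 ± 0.82 TPM), Fads2 (13.2 ± 3.75 TPM), Acaca (12.1 ± 0.73 TPM) and Scd1 (10.2 ± 1.28 TPM) closed the order, each overlapping the next. Fasn thus lay between Fads1 and Srebf1 in WT and above both Fads1 and Scd2 in Pbrm1 cKO.

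The choice of scale moves small changes. Fold changes on the length-scaled scale lie higher in Pbrm1 cKO by 0.20 (log2, median over all genes tested) than those on DESeq2's normalized counts. A fit with size factors from the length-scaled totals, added after seeing the data, called 4301 genes higher and 1396 lower in place of 2774 and 2658. On that scale Scd2 (-1.39), Scd1 (-1.07), Fads2 (-0.99), Fads1 (-0.82) and Elovl6 (-0.79) were still called lower, with DESeq2 adjusted p from 6.16e-20 to 0.000187. Acly (-0.11, DESeq2 adjusted p = 0.594) was no longer called, Fasn turned to 0.08 (DESeq2 adjusted p = 0.696), and Srebf1 (0.50), Acaca (0.42) and Me1 (0.69) passed as higher with DESeq2 adjusted p of 0.00187, 0.00698 and 0.0112. The direction of the desaturases and the elongase did not depend on the scale in the fits run, whereas the calls of Acly, Srebf1, Acaca and Me1 and the sign of Fasn did.

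**Figure D3:**
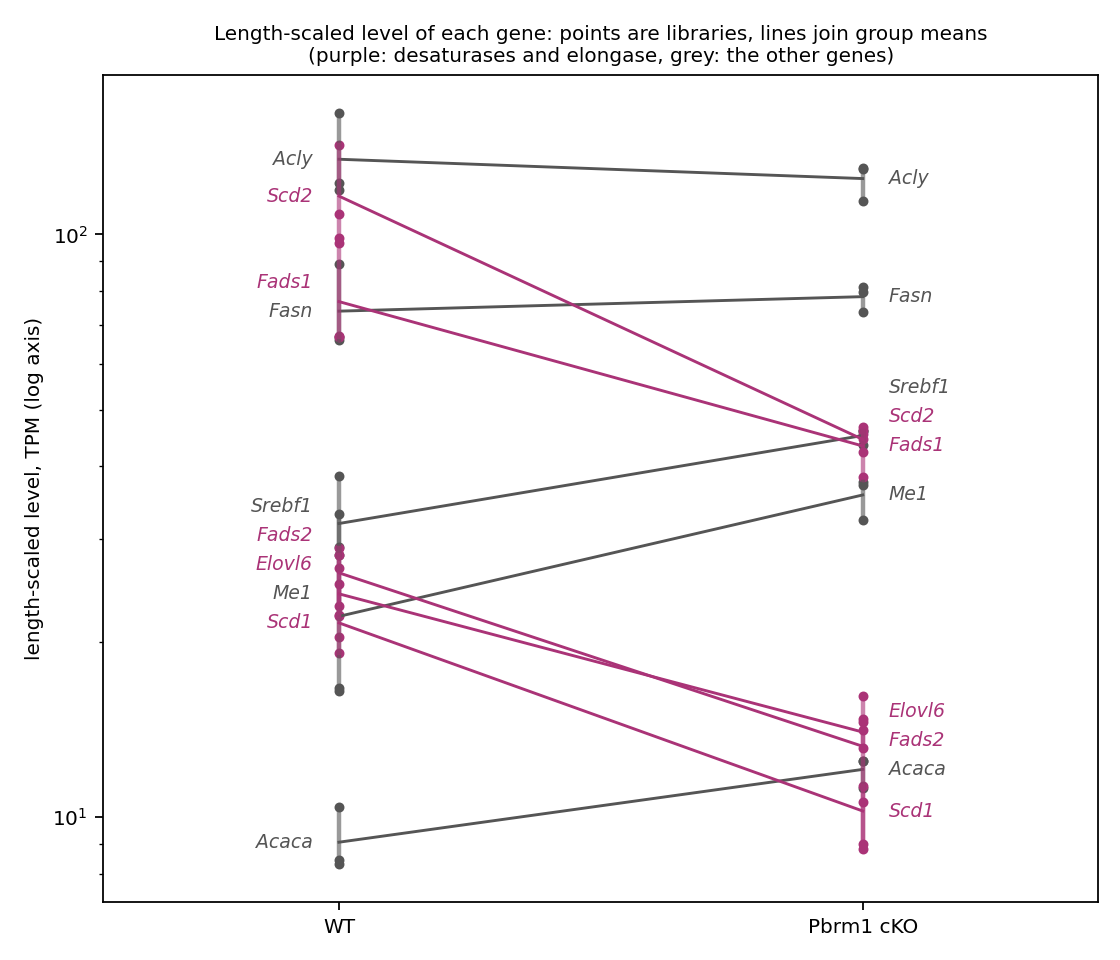
Length-scaled level of each gene (TPM, log axis) in WT and Pbrm1 cKO, with points for libraries, vertical bars for the range and lines joining the group means. The purple lines of the desaturases and the elongase all go down, Scd2 from 116 to 44.5 TPM, and the grey lines of the other genes stay level or go up on this scale, apart from Acly.

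Ratios within a library do not depend on the scale between libraries. They were chosen after the values of the single genes were seen and are given as a description. The summed Scd1 and Scd2 level was 1.88, 1.95 and 1.77 times that of Fasn in WT and 0.713, 0.693 and 0.694 times in Pbrm1 cKO. The 3 Pbrm1 cKO ratios were nearly equal and far below those of WT, a difference of -1.41 on the log2 scale. Elovl6 relative to Fasn was 0.317, 0.337 and 0.332 in WT and 0.174, 0.185 and 0.178 in Pbrm1 cKO, and the summed Fads1 and Fads2 level relative to Fasn was 1.41, 1.36 and 1.40 in WT and 0.766, 0.753 and 0.644 in Pbrm1 cKO. Of the WT libraries, replicate 1 gave the middle value for the Scd ratio, the lowest for Elovl6 and the highest for the Fads ratio, and in every WT library all 3 ratios were above those of every Pbrm1 cKO library. Fasn relative to Acaca, both enzymes of palmitate synthesis, was 8.53, 7.95 and 7.89 in WT and 6.50, 6.37 and 6.56 in Pbrm1 cKO. Desaturases and the elongase together made up 47.6% to 50.4% of the summed level of the 10 genes in WT and 28.9% to 30.4% in Pbrm1 cKO.

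**Figure D4:**
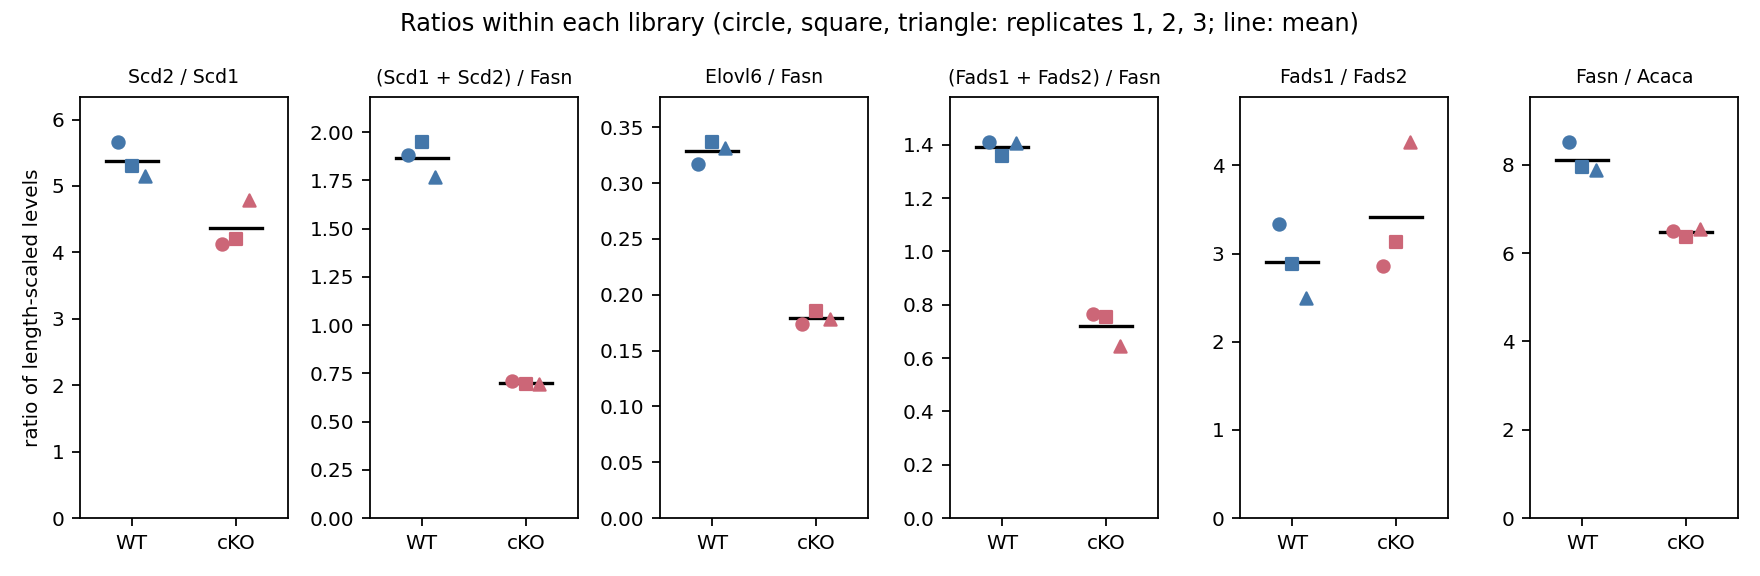
Ratios of length-scaled levels within each library (y axes, linear, from 0), with circle, square and triangle for replicates 1, 2 and 3 and a line for the mean. The ratio of Scd1 plus Scd2 to Fasn is 1.77 to 1.95 in WT and 0.693 to 0.713 in Pbrm1 cKO, and Fads1 relative to Fads2 overlaps between the groups.

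Promoter sequence is shown for genes called lower and for a gene not called. RefSeq promoters (GRCm38.p6) were matched by symbol for 7 of the 10 genes, with 10 promoters in all. Scd1, Scd2 and Fads1 had no entry. The 250 bases before the start are printed below, 5' to 3' on the gene's strand, for Elovl6 (chr3:129532136-129532385, plus), Fads2 (chr19:10101504-10101753, minus) and Acly (chr11:100528001-100528250, minus), which were called lower, and for Fasn (chr11:120824548-120824797, minus), which was not. They are shown to be read side by side, and no contrast between the groups of genes was tested. Promoters of Acaca, Me1 and Srebf1, which were not called either, are not printed. The call of Acly was lost under 6 of 12 alternative settings. Capitals mark CCAAT, the motif of the factor NF-Y, and GGGCGG, the motif of Sp1, on either strand. NF-Y and Sp1 are partners of SREBP at lipogenic promoters.
Elovl6: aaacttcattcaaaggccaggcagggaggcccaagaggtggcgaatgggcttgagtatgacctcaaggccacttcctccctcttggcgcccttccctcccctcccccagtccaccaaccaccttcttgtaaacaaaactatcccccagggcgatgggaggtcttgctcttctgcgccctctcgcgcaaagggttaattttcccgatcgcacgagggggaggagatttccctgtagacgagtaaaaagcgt
Fads2: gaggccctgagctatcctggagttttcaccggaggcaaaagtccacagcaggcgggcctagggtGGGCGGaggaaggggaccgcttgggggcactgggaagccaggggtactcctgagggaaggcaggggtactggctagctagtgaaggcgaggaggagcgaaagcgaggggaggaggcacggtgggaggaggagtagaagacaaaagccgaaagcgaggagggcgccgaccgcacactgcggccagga
Acly: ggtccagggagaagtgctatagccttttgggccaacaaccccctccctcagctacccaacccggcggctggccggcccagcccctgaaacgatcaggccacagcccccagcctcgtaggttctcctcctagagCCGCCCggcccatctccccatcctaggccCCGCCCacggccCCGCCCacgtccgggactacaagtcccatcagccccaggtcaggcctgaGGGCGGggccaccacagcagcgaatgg
Fasn: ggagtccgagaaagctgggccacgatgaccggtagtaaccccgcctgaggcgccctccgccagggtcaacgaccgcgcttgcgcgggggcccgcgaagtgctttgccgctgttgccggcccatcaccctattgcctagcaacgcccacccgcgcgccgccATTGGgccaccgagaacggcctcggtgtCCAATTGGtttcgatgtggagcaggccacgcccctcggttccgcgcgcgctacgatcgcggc

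CCAAT was found in 4 of the 10 promoters (of Fasn, Me1 and Srebf1), and 33.8% of all 32851 RefSeq promoters of this length hold it. In Fasn it occurs 3 times, at -90, -62 and -59 from the start, and the last pair overlaps because the strands share bases. GGGCGG was found in 5 of the 10 (of Acly, Fads2, Me1 and Srebf1), against 32.7% of all promoters, with 4 copies in Acly at -117, -88, -76 and -27 and 1 in Fads2 at -186. Neither motif was present in the Elovl6 window. The SREBP element TCACNCCAC was in 0 of the 10 windows and 1.05% of all promoters and the E-box CACGTG in 0 of the 10 and 6.02%. Both strands were searched for exact letters, and an absent match says only that these letters are not in this window. Some windows start inside the gene model of the count table, the only Acaca window 65766 bases from its 5' end. Windows of Me1 (8676 bases) and of Srebf1 (1954 and 12110 bases) lie inside as well, and the CCAAT of Me1 is in that inner window. None of these matches is evidence of binding.

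Around the 10 genes, 102 genes of connected pathways were listed by role, of which 97 were tested, 15 were higher and 31 were lower, with a median log2 fold change of -0.09. Of all genes tested 15.9% were higher and 15.2% lower, so the count of higher genes was near that background and the count of lower genes above it. With length-scaled totals 22 were higher and 19 lower, in a fit that called 4301 higher and 1396 lower over all genes. Among 20 other genes of fatty acid synthesis, elongation and desaturation, 17 were tested, 4 fell and 1 rose, with a median of -0.02 (without WT replicate 1, 5 fell and 0 rose). Against 15.2% lower and 15.9% higher among all genes tested, and 19.6% lower among those with a mean of at least 100 normalized counts, these counts say little about the list. The 4 that fell were Hacd3 (-0.72) and Tecr (-0.69), which complete the elongation cycle with the elongases, and, named after their values were seen, Elovl5 (-0.65) and the mitochondrial Mcat (-0.55). Elovl5 lengthens the polyunsaturated chains between the Fads2 and Fads1 steps. It had normalized counts of 1164, 956 and 858 in WT and 674, 613 and 617 in Pbrm1 cKO (DESeq2 adjusted p = 2.33e-05). Hsd17b12, the reductase of the same cycle, rose by 0.29 with a DESeq2 adjusted p of 0.0496, a call lost under 7 of 12 alternative settings.

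Of the 8 genes for acetyl-CoA and NADPH supply, all were tested, 4 fell and 0 rose (median -0.52), against 15.2% and 15.9% of all genes tested. At an unadjusted p under 0.05 and by edgeR, 0 rose as well, and without WT replicate 1 there was 1 that rose (Acss2, named after its values were seen). Me3, a mitochondrial malic enzyme, had normalized counts of 321, 405 and 355 in WT and 70.0, 55.9 and 57.2 in Pbrm1 cKO, a log2 fold change of -2.56 ± 0.19 (SE, DESeq2 adjusted p = 1.44e-38). Idh2, the mitochondrial NADPH-forming isocitrate dehydrogenase, was at -1.34 (DESeq2 adjusted p = 1.31e-28). Named after their values were seen, its cytosolic relative Idh1 was at -1.32 and the citrate carrier Slc25a1, which brings the substrate of Acly to the cytosol, at -0.85. G6pdx (-0.08) and Pgd (-0.08), the NADPH-forming enzymes of the pentose phosphate pathway, did not pass. Pgd ranged from 1684 to 3786 among the WT libraries alone, and without WT replicate 2 it was called lower (-0.37, DESeq2 adjusted p = 0.0069), so that 5 of the 8 fell. Without WT replicate 1 it was at 0.14 (DESeq2 adjusted p = 0.821).

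Of 15 regulators, 13 were tested, 4 rose and 2 fell (median 0.22), against 15.9% higher and 15.2% lower among all genes tested. The count that rose was 6 without WT replicate 1, 2 without WT replicate 2 and 1 without Pbrm1 cKO replicate 2. With length-scaled totals 7 rose and 0 fell, while over all genes that fit called 4301 higher and 1396 lower. Nr1h3, the liver X receptor alpha that induces Srebf1 when oxysterols bind it, had normalized counts of 108, 86.6 and 76.7 in WT and 218, 215 and 242 in Pbrm1 cKO, a log2 fold change of 1.31 ± 0.20 (SE, DESeq2 adjusted p = 4.49e-10). It is also well expressed in macrophages, and the leukocyte markers rose in the same libraries. Insig1, which holds SREBP back in the endoplasmic reticulum and is itself an SREBP target, fell by 0.60 (DESeq2 adjusted p = 0.0015, 0.0606 on the length-scaled totals). Prkaa1, a catalytic subunit of the AMP-activated kinase that inhibits acetyl-CoA carboxylase, fell by 0.34 (DESeq2 adjusted p = 0.000884, 0.323 on the length-scaled totals). Mid1ip1, an activator of acetyl-CoA carboxylase, was at -0.08 and did not pass. The other genes that rose, named after their values were seen, were Insig2 (0.50), Lpcat3 (0.45) and Mbtps2 (0.43), and Srebf2, the sister gene of Srebf1, was at 0.23 and did not pass (DESeq2 adjusted p = 0.244).

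Sterol synthesis and uptake, the other branch under SREBP control, had 9 of 13 tested genes lower and 0 higher, with a median of -0.56, against 15.2% lower and 15.9% higher among all genes tested. Leaving out a library gave 6 to 10 lower, with 7 without WT replicate 1. At an unadjusted p under 0.05 and by edgeR, 0 were higher as well. Fdps was at -1.16, Cyp51 at -0.85 and Hmgcs1 at -0.69.

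Of 12 genes for fatty acid uptake and activation, 5 rose and 4 fell (median -0.32, against 15.9% higher and 15.2% lower among all genes tested), and 5 rose and 5 fell without WT replicate 1. Lpl, the lipase that frees fatty acids from lipoproteins, had normalized counts of 113, 204 and 203 in WT and 774, 720 and 695 in Pbrm1 cKO, a log2 fold change of 2.07 ± 0.20 (SE, DESeq2 adjusted p = 1.47e-23). The transporter Cd36 had 723, 2413 and 2364 in WT and 5348, 5234 and 5383 in Pbrm1 cKO (1.54, DESeq2 adjusted p = 0.012). WT replicate 1 was far below the other WT libraries for Cd36, and the call was lost when any 1 of the Pbrm1 cKO libraries was left out (DESeq2 adjusted p = 0.0673 to 0.0717). Both Lpl and Cd36 are expressed by macrophages. Fabp3, a fatty acid binding protein, fell by 3.08 (DESeq2 adjusted p = 1.06e-21), from 112 to 170 normalized counts in WT to 15.0 to 19.2 in Pbrm1 cKO, and Acsl5, which activates fatty acids with CoA, fell by 0.46 (DESeq2 adjusted p = 3.04e-06). Of 18 genes for glycerolipid assembly and storage, 2 rose and 4 fell (median -0.02), near the same background. With length-scaled totals 5 rose and 1 fell, in the fit that called 4301 higher and 1396 lower over all genes. Without WT replicate 1, 3 rose and 4 fell. Leaving out Pbrm1 cKO replicate 1 or 2 gave 1 that rose and 2 that fell, and leaving out replicate 3 gave 2 and 2. The lipase Mgll was at -2.24, the lipid droplet coat protein Plin2 at 0.28, the phosphatidate phosphatase Lpin2 at 0.67 and the acyltransferase Gpat4 at -0.28, and the calls of Plin2 and Gpat4 were lost under 3 and 5 of the 12 alternative settings.

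**Figure D5:**
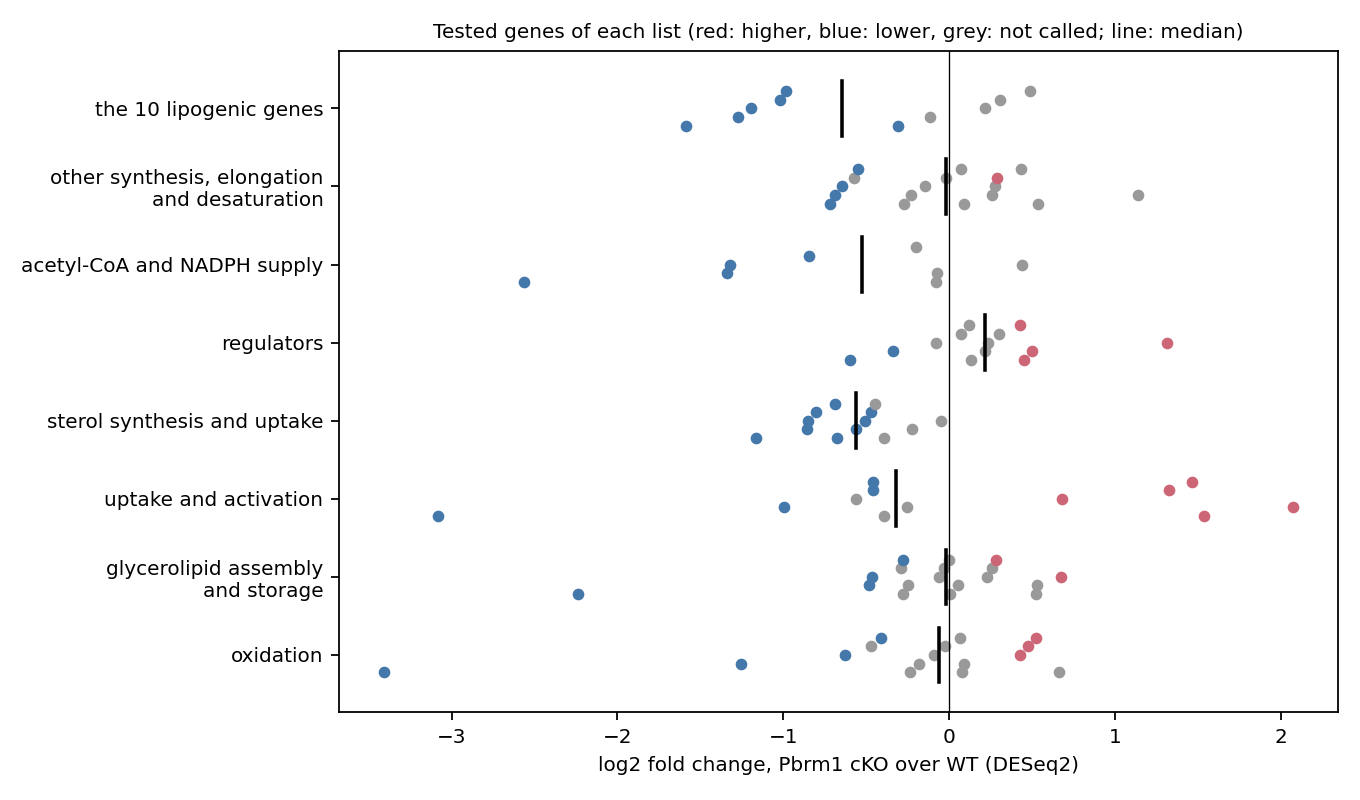
Log2 fold change (x axis) of each tested gene in the lists of connected pathways, 1 row per list, red for higher, blue for lower, grey for not called and a line for the median. The 10 lipogenic genes split into 5 values near or below -1 and 5 between -0.31 and 0.49. Their median of -0.65 falls in the gap between these values, near the medians of sterol synthesis (-0.56) and of acetyl-CoA and NADPH supply (-0.52).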

How the data were processed

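RNA-seq was analysed in 3 WT and 3 Pbrm1 cKO samples. The authors trimmed reads with cutadapt, mapped them to GRCm38 with HISAT2 and counted them per gene of GENCODE release 18 with featureCounts 1.6.4, and the deposited values are raw counts of each sample. By default that program drops reads with several genomic matches or genes, which lowers counts of genes with close copies. The exonic length (in bases) in the same table, which the authors deposited beside the counts, gave length-scaled levels (TPM).

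Groups followed the labels. All genes with a count entered DESeq2 1.42.0 (R 4.3.3) in 1 fit of all 6 libraries without covariates (median-of-ratios scaling, Wald test, Benjamini-Hochberg adjustment over all genes tested, threshold 0.05). The study's methods name the same tool. Log2 fold changes are unshrunken and Pbrm1 cKO over WT. edgeR 4.0.16 (quasi-likelihood), TMM size factors, filterByExpr, a replicate term, a length trend, the limits the study states for its calls (unadjusted p under 0.01, adjusted p under 0.1 and a fold change over 1.5) and leaving out each library were alternatives. Ratios were compared with an exact permutation test. Totals of 13253575 to 18338667 counts put 3 counts, the limit that a count of 0 allows, at 0.164 to 0.226 CPM, for counting error only. The 10 genes and all lists follow the genes' known roles, but were put together with earlier results of these data known. Genes named from a list are its 2 most abundant and the 2 most changed of those called, with exceptions stated. Sequences are from RefSeq.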

Additional observations from a re-analysis of the deposited data

How the results depend on the processing

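Scd1, Scd2, Elovl6, Fads1 and Fads2 were called lower under 12 alternative settings and with length-scaled totals. Over the 12 settings, length-scaled totals not counted, their log2 fold changes were -1.36 to -1.17, -1.69 to -1.44, -1.06 to -0.88, -1.11 to -0.85 and -1.33 to -0.99. The count of lipogenic genes called higher, 0 with DESeq2, was 2 with edgeR (Srebf1 and Me1), 1 after filterByExpr, 0 to 2 when a library was left out and 3 with length-scaled totals, and in each case the cause was not tested. Fasn changed sign without WT replicate 1 (-0.186 to 0.016 over the fits that leave out a library) and with length-scaled totals (0.083), and Acaca with the length trend removed (-0.004). Genes that were not called also changed sign. Leaving out a library gave -0.094 to 0.113 for Fads3, -0.200 to 0.023 for G6pdx, -0.365 to 0.138 for Pgd and -0.148 to 0.005 for Mid1ip1, length-scaled totals gave 0.180, 0.127, 0.111, 0.121 and, for Acadvl, 0.017, and the length trend removed gave 0.024 for Fads3. Over all genes the study's limits gave 1665 higher and 1452 lower, and length-scaled totals 4301 and 1396. For the connected pathways the study's limits gave 7 higher and 20 lower, length-scaled totals 22 higher and 19 lower, and leaving out a library 7 to 18 higher and 23 to 31 lower. Replicate numbers did not pair the samples (correlation of same-numbered deviations 0.114, -0.052 and 0.003). With the replicate block, 1 lipogenic gene was higher (Me1, 0.57, DESeq2 adjusted p = 0.0374) and 6 were lower, and 2175 genes in all were higher and 1828 lower. Depth limits Fads2 most, with 69 to 211 counts per library.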

Other observations

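Fatty acid oxidation, the opposite route, had 16 tested genes, of which 3 were higher and 4 lower by DESeq2, with a median log2 fold change of -0.06. Of all genes tested 15.9% were higher and 15.2% lower (19.6% lower among those with a mean of at least 100 normalized counts), so these counts lie near the background and are no result about the list. Leaving out WT replicate 2 or Pbrm1 cKO replicate 1 gave 1 higher and 2 lower, leaving out Pbrm1 cKO replicate 2 gave 1 and 3, and the study's limits gave 0 and 3. Pdk4, the kinase that turns cells from glucose to fatty acids as fuel, had normalized counts of 154, 225 and 299 in WT and 23.7, 20.8 and 19.7 in Pbrm1 cKO, a log2 fold change of -3.41 ± 0.31 (SE, DESeq2 adjusted p = 1.67e-26). Hadh, of the mitochondrial oxidation cycle, fell by 1.25 (DESeq2 adjusted p = 1.73e-13), and, named after their values were seen, so did Acaa2 (-0.63) and Hadhb (-0.41). The genes that rose, also named after their values were seen, were Cpt1a (0.52), which admits fatty acids to mitochondria, Ppard (0.47) and Cpt2 (0.43). Acadvl was at -0.18 and did not pass.

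Acadl, an acyl-CoA dehydrogenase of the same list, resembled Me1 in its values. It had normalized counts of 325, 455 and 872 in WT and 866, 853 and 893 in Pbrm1 cKO, with WT replicate 3 at the Pbrm1 cKO level (0.66, DESeq2 adjusted p = 0.244). Without WT replicate 3 its log2 fold change was 1.16 (DESeq2 adjusted p = 1.53e-12), and without WT replicate 1 it was 0.39 (DESeq2 adjusted p = 0.417). It was not called under 9 of 12 alternative settings, with adjusted p up to 0.495.

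These values cover 3 samples per group, RNA only and whole genes. They hold no measure of SREBP-1 protein, of isoforms or of lipids, and the leukocyte markers that moved with the groups were not separated from the stromal signal.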
